A study of Drosophila melanogaster with 12 samples.

Results

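In heads of the *y w* laboratory strain, which carries markers of body and eye colour, expression was examined for 30 genes of 3 families of secreted hydrolases: the Jonah serine proteases (14 genes), the trypsins with Greek-letter names (9 genes) and the lysozymes of the Lys series (7 genes). The members were the genes whose single annotated symbol starts with Jon and a number, ends in Try, or starts with Lys and 1 capital letter, and they correspond to 30 of the 13966 probe sets other than controls on the array. Each member gene had 1 probe set. Another 3 probe sets named several genes, of which 1 would meet the rule, and were left out. Flies were kept in constant darkness throughout. They were entrained to a cycle of 18 °C and 25 °C, and heads were collected every 4 h on the last thermocycle day (CA, cold/ambient) and on a day at constant 25 °C (AA, ambient/ambient). The 12 arrays, named by day and hour, form 4 groups of 3: CA thermophase (CA14, CA18 and CA22, at 25 °C), CA cryophase (CA2, CA6 and CA10, at 18 °C), AA subjective thermophase (AA14, AA18 and AA22, at 25 °C) and AA subjective cryophase (AA2, AA6 and AA10, at 25 °C). All 4 groups share genotype, darkness and rearing. Each array is the only one of its hour and was made from pooled heads, which were sieved from broken frozen flies. The 3 hours of a group therefore stand in for replicates. In the main group comparisons, a p-value sets a difference against the spread between hours, which holds time of day as well as technical variation.

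Digestion of protein in the fly takes place mainly in the midgut, where enterocytes secrete serine proteases of the trypsin and chymotrypsin type into the lumen. The Jonah genes encode proteases of the same fold that are abundant in the larval and adult midgut. Lysozymes cleave the peptidoglycan of bacterial cell walls, and in Drosophila most genes of the Lys cluster serve the digestion of bacteria in food rather than the immune response. *LysB*, *LysC*, *LysD* and *LysE* are known as midgut genes of larvae and adults, *LysP* as a gene of the adult salivary gland, *LysS* as a gene of the larval gastric caeca and *LysX* as a gene of the gut around metamorphosis. The head capsule holds the pharynx and the front of the oesophagus but no midgut.

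The arrays were close in scale, with medians between 4.35 and 4.39 (log2), and the correlation between any 2 of them over all genes was 0.974 to 0.995. Markers of the labelled tissue were present: all 12 measured photoreceptor genes and all 11 neuronal genes passed the filter on low values, and the arrestin *Arr2* lay between 11.3 and 11.8 (log2) on the 12 arrays. Transcripts of the male accessory gland and of the testis, which are not head tissues, were measured as well. The mean deviation of 14 male reproductive tract genes from their own 12-array means had r = 0.938 with that of the members over the 12 arrays, and that of 9 testis genes had r = 0.924. Only 5 of the 14 male genes and 7 of the 9 testis genes passed the filter, so most of the male list had low values. The values of an array in such a pair come from the same RNA sample and hybridisation. The summed log2 level of the male list ranged from 38.7 to 54.2 in CA thermophase heads, 38.1 to 47.4 in CA cryophase heads, 42.6 to 48.9 in AA subjective thermophase heads and 37.8 to 44.5 in AA subjective cryophase heads. For the translation initiation factor *eIF-4a*, the gap between the 3' and 5' control probe sets ran from 0.96 at AA2 to 3.23 at CA22. Fits below hold the male list or the *eIF-4a* gap as a covariate. With r = 0.938 to the members, the male list cannot be separated from their own pattern in such a fit. The part of these measures in the results on the members was not tested further.

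Most Jonah, trypsin and lysozyme genes were high or low on the same arrays, with *LysS*, *Jon66Ci*, *Jon66Cii* and *zetaTry* the least alike, and on the CA day high and low arrays occurred in both phases. The mean deviation of the 30 members from their own 12-array means was 0.44, -0.34 and 0.87 (log2) at CA14, CA18 and CA22 in the thermophase, and 0.42, -0.43 and -0.48 at CA2, CA6 and CA10 in the cryophase. Each CA phase thus held arrays on either side of zero. On the AA day the mean deviation was 0.13, 0.10 and 0.30 at AA14, AA18 and AA22, and -0.30, -0.27 and -0.45 at AA2, AA6 and AA10, so that the phases did not overlap. CA22 was the highest array for 20 of the 30 members, CA10 was the lowest for 12 and AA10 for 10. In bulk heads a higher share of cells of a type and more RNA per cell cannot be told apart. A split that was seen in the values and is given as a description only concerned CA2, CA14 and CA22: all 3 exceeded CA6, CA10 and CA18 in 23 of the 30 members (12 of 14 Jonah genes, 6 of 9 trypsins and 5 of 7 lysozymes), against 4.37% of all 13966 probe sets.

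**Figure D1:**
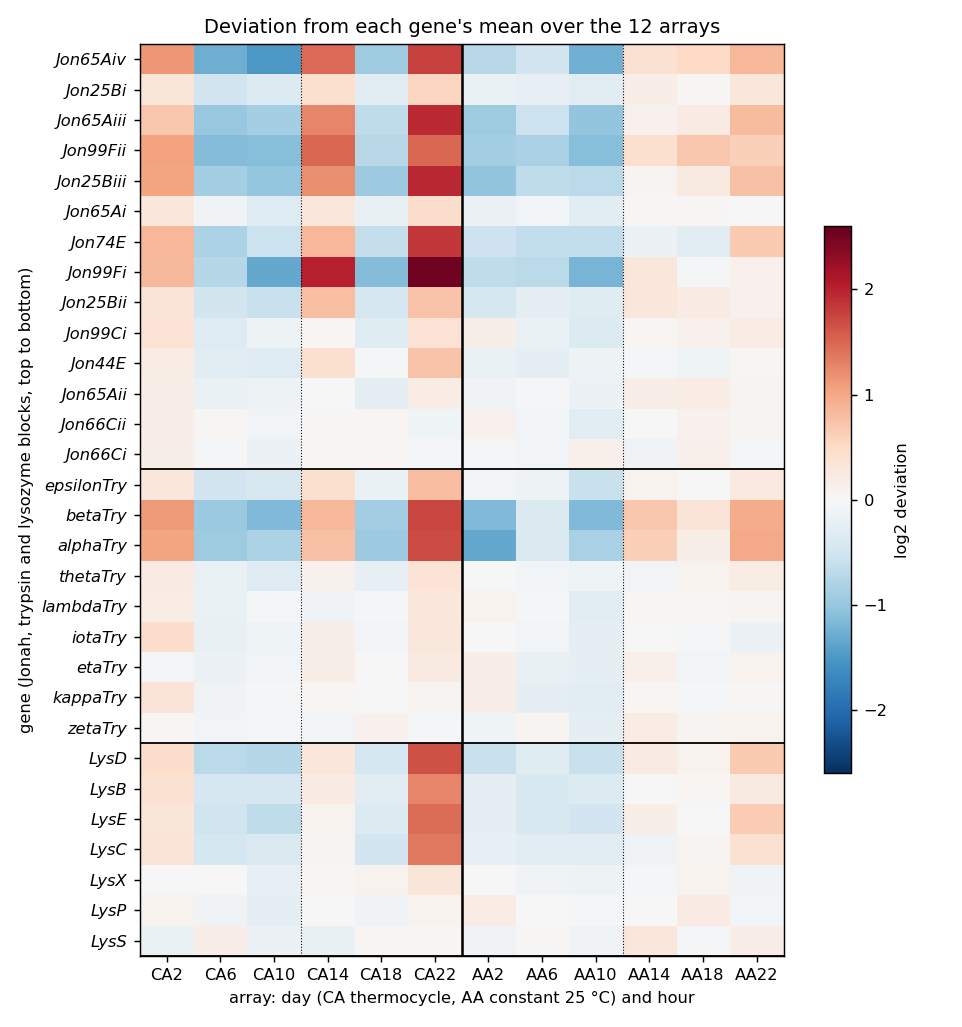
Deviation of each gene (rows, Jonah, trypsin and lysozyme blocks) from its own mean over the 12 arrays in log2 units, by array (columns, CA day then AA day in hour order, dotted lines at hour 12). Red is above and blue below the mean, and CA2, CA14 and CA22 exceed CA6, CA10 and CA18 in 23 of the 30 genes.

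Among the Jonah proteases, *Jon99Fi* and *Jon65Aiv* had the widest ranges over the 12 arrays, 3.86 and 3.28 (log2). *Jon65Aiv* had values of 8.94, 6.55 and 9.26 at CA14, CA18 and CA22 in the CA thermophase, 8.60, 6.21 and 5.97 at CA2, CA6 and CA10 in the CA cryophase, 7.86, 8.0 and 8.33 in the AA subjective thermophase, and 6.75, 6.97 and 6.23 in the AA subjective cryophase, with the AA hours in the same order. CA2 was higher than every AA array for this gene, while CA18 was close to the low cryophase arrays. *Jon99Fi* had values of 5.02, 1.88 and 5.54 in the CA thermophase, 3.86, 2.26 and 1.67 in the CA cryophase, 3.31, 2.95 and 3.11 in the AA subjective thermophase, and 2.35, 2.31 and 1.80 in the AA subjective cryophase. Only 6 of its 12 values exceeded the cutoff of 2.93 (log2), so it did not pass the filter and has no test, whereas the other 29 members passed. Its neighbour *Jon99Fii* gave 8.42, 6.21 and 8.42 in the CA thermophase, 7.98, 5.80 and 5.83 in the CA cryophase, 7.35, 7.63 and 7.54 in the AA subjective thermophase, and 6.04, 6.08 and 5.82 in the AA subjective cryophase. The AA groups of *Jon99Fii* were tight and well apart, and its CA groups overlapped. The *Jon99Fii* probe set is of the type whose probes match several related genes, so its signal may include that of its relatives.

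*Jon44E* moved over a narrower span: 4.62, 4.15 and 4.95 in the CA thermophase, 4.39, 3.92 and 3.86 in the CA cryophase, 4.17, 4.09 and 4.26 in the AA subjective thermophase, and 4.02, 3.95 and 4.06 in the AA subjective cryophase. CA22 and CA14 were its highest arrays. The 2 genes of the Jon66C pair stayed nearly flat. *Jon66Ci* had the smallest range of all members, 0.31, between 5.13 and 5.44. *Jon66Cii* had values of 4.08, 4.09 and 3.93 in the CA thermophase, 4.21, 4.09 and 3.97 in the CA cryophase, 4.03, 4.15 and 4.12 in the AA subjective thermophase, and 4.16, 3.97 and 3.76 in the AA subjective cryophase, and its groups overlapped on both days. The remaining Jonah genes with a range of 1 log2 unit or more were *Jon25Biii* (3.54 to 6.53), *Jon65Aiii* (5.88 to 8.86), *Jon74E* (5.32 to 7.99) and *Jon25Bi* (3.58 to 4.63), highest at CA22, and *Jon25Bii* (5.62 to 6.97), highest at CA14.

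The trypsins divided into 3 genes of wide range and 6 of narrow range. *alphaTry* had values of 7.08, 5.38 and 8.01 in the CA thermophase, 7.34, 5.39 and 5.50 in the CA cryophase, 6.93, 6.48 and 7.30 in the AA subjective thermophase, and 4.98, 5.94 and 5.48 in the AA subjective cryophase. *betaTry*, from the same cluster, had 8.41, 6.64 and 9.27 in the CA thermophase, 8.65, 6.57 and 6.40 in the CA cryophase, 8.24, 7.89 and 8.50 in the AA subjective thermophase, and 6.41, 7.16 and 6.40 in the AA subjective cryophase. Both genes put CA2 among the high arrays and CA18 among the low ones. *epsilonTry* followed over a smaller span, from 5.04 at AA10 to 6.42 at CA22. *zetaTry* had values of 4.78, 4.96 and 4.82 in the CA thermophase, 4.90, 4.78 and 4.82 in the CA cryophase, 5.05, 4.92 and 4.94 in the AA subjective thermophase, and 4.73, 4.91 and 4.61 in the AA subjective cryophase. *kappaTry* had 4.19, 4.14 and 4.20 in the CA thermophase, 4.46, 4.04 and 4.09 in the CA cryophase, 4.18, 4.07 and 4.16 in the AA subjective thermophase, and 4.30, 3.90 and 3.86 in the AA subjective cryophase. Hour 2 was the highest hour of *kappaTry* on both days. The other narrow trypsins were *thetaTry* (3.37 to 4.06), *iotaTry* (3.53 to 4.22), *lambdaTry* (4.28 to 4.84) and *etaTry* (3.21 to 3.70).

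The lysozymes split by gene. *LysD* had values of 7.63, 6.89 and 9.01 in the CA thermophase, 7.81, 6.65 and 6.60 in the CA cryophase, 7.56, 7.44 and 8.02 in the AA subjective thermophase, and 6.77, 7.03 and 6.77 in the AA subjective cryophase. *LysE* had 7.76, 7.30 and 9.11 in the CA thermophase, 7.99, 7.14 and 7.0 in the CA cryophase, 7.82, 7.68 and 8.33 in the AA subjective thermophase, and 7.42, 7.27 and 7.17 in the AA subjective cryophase. CA22 was above every other array for both, and for *LysB* (8.14 to 9.84) and *LysC* (6.56 to 8.44) as well. These 4 probe sets are of the type that matches several related genes, so the 4 midgut lysozymes may share signal and are not separate observations. *LysX* stayed near the cutoff, with 3.02, 3.05 and 3.28 in the CA thermophase, 2.96, 2.98 and 2.76 in the CA cryophase, 2.93, 3.06 and 2.87 in the AA subjective thermophase, and 2.96, 2.87 and 2.83 in the AA subjective cryophase, and exceeded it on 8 of 12 arrays. *LysS* (7.61 to 8.09) and *LysP* (4.72 to 5.18) covered less than 1 log2 unit and were highest at AA14 and AA18.

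**Figure D2:**
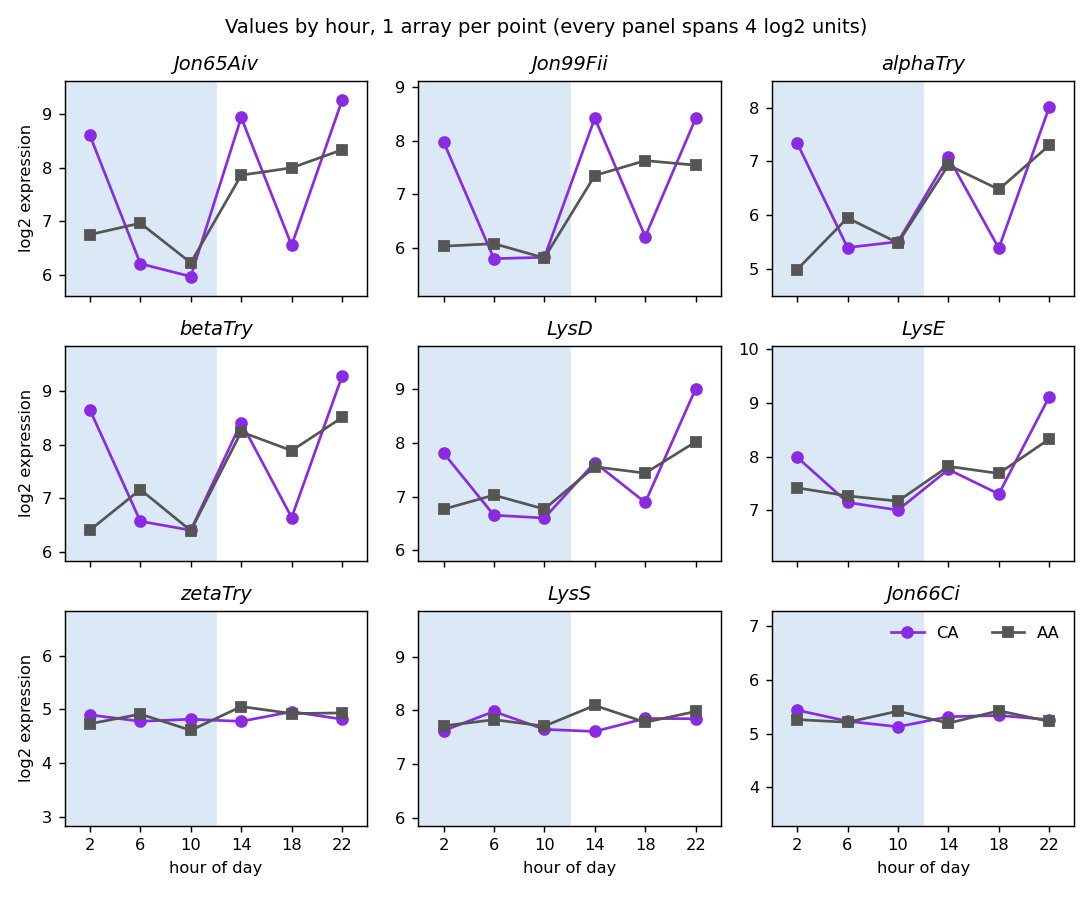
Log2 expression of 9 genes by hour of day on the CA day (purple circles) and the AA day (grey squares), 1 array per point, with every panel spanning 4 log2 units and the shaded hours 0 to 12 at 18 °C on the CA day only. In the 6 upper panels CA18 is low between high CA14 and CA22, while *zetaTry*, *LysS* and *Jon66Ci* stay within 0.5 log2 units on both days.

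Likeness between members was described by the Pearson correlation of each gene with the mean standardized profile of the other 29 over the 12 arrays, which share the same RNA samples. It was 0.8 or more for 20 members, led by *Jon65Aiv* (0.970), *epsilonTry* (0.967) and *betaTry* (0.953), from 0.5 to under 0.8 for 6, and under 0.5 for *zetaTry* (0.288), *Jon66Cii* (0.284), *Jon66Ci* (0.167) and *LysS* (-0.009). The median over the 435 pairs of members was 0.693, with a range of -0.407 to 0.989. Pairs of Jonah genes had a median of 0.843, pairs of trypsins 0.666 and pairs of lysozymes 0.549. The likeness of some members depended on the day. *LysP* had r = 0.918 with the others over the 6 CA arrays and 0.117 over the 6 AA arrays, and *zetaTry* had -0.049 over the CA arrays and 0.765 over the AA arrays. Genes that neighbour each other on the chromosome were not uniformly alike. The pair *epsilonTry* and *betaTry* reached r = 0.916 and *alphaTry* and *epsilonTry* 0.879, while *alphaTry* and *betaTry*, which flank *epsilonTry*, had 0.989. *LysD* and *LysE* reached 0.985, *Jon65Aiv* and *Jon65Aiii* 0.969, and *Jon99Fii* and *Jon99Fi* 0.921. The probe sets of *LysD*, *LysE* and *Jon99Fii* may hold signal of related genes, which can raise their r, and they also enter the counts and medians above. Within the same clusters, *LysE* and *LysP* had r = 0.410, *zetaTry* and *kappaTry* 0.267, and *LysP* and *LysS* -0.123, and the Jon66C pair had 0.130.

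Does the thermophase differ from the cryophase on the CA day? The difference was above 0 in 28 of 30 members (13 of 14 Jonah genes, 8 of 9 trypsins, 7 of 7 lysozymes), with a median of 0.44 (log2) against -0.001 over all probe sets, of which 49.6% were above 0. The largest were *Jon99Fi* (1.55), *Jon65Aiv* (1.32 ± 0.70, SE) and *Jon65Aiii* (1.25 ± 0.57), and *Jon66Cii* (-0.06) and *kappaTry* (-0.03) were below 0. The spread between the 3 hours of a phase was as large as these differences: *Jon65Aiv* averaged 8.25 ± 1.48 in the thermophase and 6.93 ± 1.45 in the cryophase (SD, n = 3 each). No member passed limma's test at an adjusted p of 0.05 (0 of 29, smallest adjusted p = 0.995, against 0.00897% of all probe sets tested), and 4 had an unadjusted p under 0.05 with a positive difference, against 3.87% of all. The smallest p belonged to *Jon44E*, which averaged 4.57 ± 0.40 in the thermophase and 4.06 ± 0.29 in the cryophase (difference 0.52 ± 0.18, SE), and to *LysX*, with a difference of 0.22 ± 0.10. Without CA22 these differences were 0.33 and 0.14. Every thermophase array exceeded every cryophase array in 2 members, *LysX* and *etaTry*, against 4.16% of all probe sets. The median depended on single arrays. It was 0.14 without CA22, with 22 of 30 above 0, 0.69 without CA18 and 0.67 without CA2. With the mean deviation of the male list as a covariate it was 0.11, with 23 of 30 above 0. In the male list itself 14 of 14 genes were above 0 (median 0.25), in the testis list 9 of 9 (median 0.21) and in the flight muscle list 5 of 6 (median 0.24). Of these lists 5, 7 and 3 genes passed the filter and were tested, with 0 called. The male list had r = 0.938 with the members, so that covariate cannot separate the male transcripts from the members' own pattern. The part of these transcripts was not tested otherwise.

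At constant 25 °C the comparison of the subjective phases asked whether a difference by time of day remained without the temperature step. The difference was above 0 in 29 of 30 members (13 of 14 Jonah genes, 9 of 9 trypsins, 7 of 7 lysozymes), with *Jon66Ci* (-0.01) as the exception. Its median was 0.32 (log2), against 0.01 over all probe sets, of which 54% were above 0. *betaTry* averaged 8.21 ± 0.31 in the subjective thermophase and 6.65 ± 0.44 in the subjective cryophase (SD, n = 3 each), a difference of 1.55 ± 0.63 (SE). *Jon99Fii* averaged 7.51 ± 0.14 in the subjective thermophase and 5.98 ± 0.14 in the subjective cryophase, a difference of 1.53 ± 0.60. Every subjective thermophase array exceeded every subjective cryophase array in 19 members, against 5.49% of all probe sets. These were 11 Jonah genes, the trypsins *alphaTry*, *betaTry*, *epsilonTry* and *zetaTry*, and the lysozymes *LysB*, *LysC*, *LysD* and *LysE*. The probe sets of these lysozymes may share signal and are not separate observations. No member passed limma's adjusted p of 0.05 (0 of 29, smallest adjusted p = 0.883, and 0% of all probe sets), and 5 had an unadjusted p under 0.05, all with a positive difference, against 5.39% of all. The error of a gene in this test is pooled over the 4 groups and so contains the wide spread of the CA arrays. Leaving out any AA array kept the median between 0.22 and 0.40. The *eIF-4a* gap as a covariate gave 0.19, with 29 of 30 above 0. The male list as a covariate gave 0.06, with 22 of 30 above 0, and in that list 12 of 14 genes were above 0 (median 0.25), in the testis list 9 of 9 (median 0.32), in the neuronal list 3 of 11 (median -0.14) and in the photoreceptor list 1 of 12 (median -0.06).

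**Figure D3:**
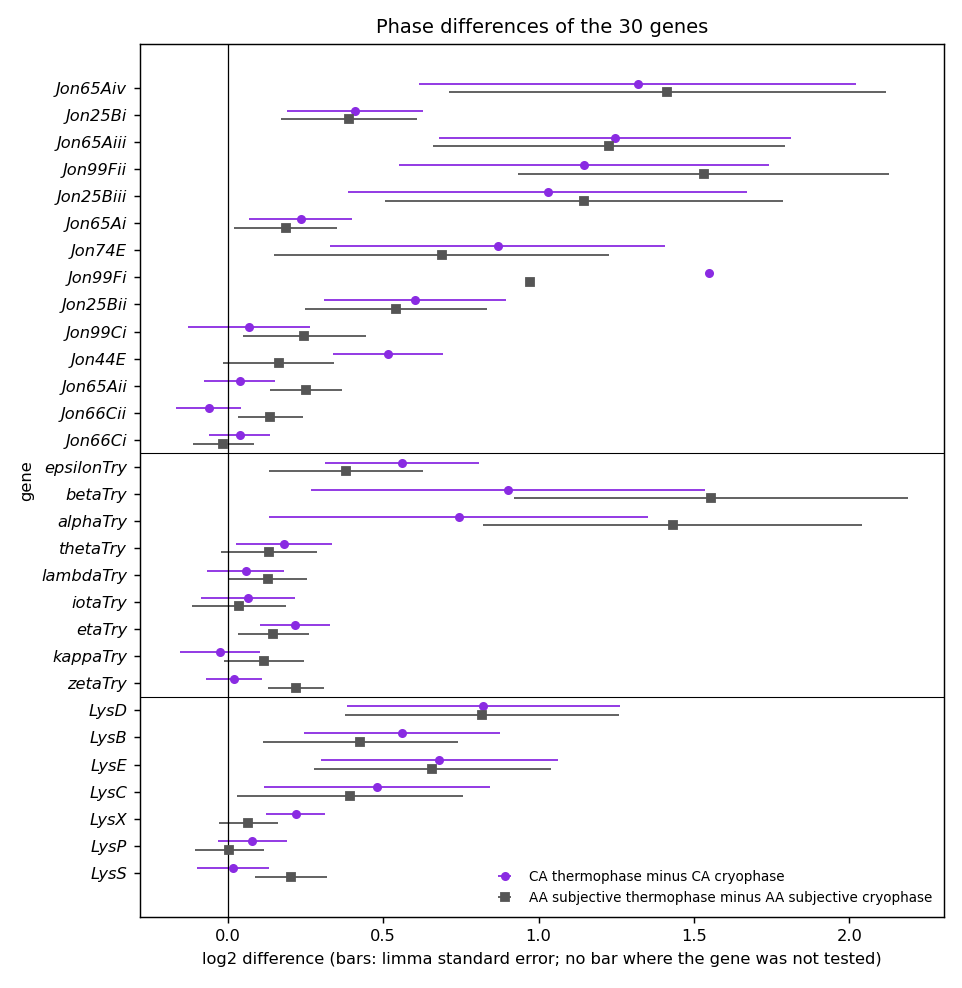
Difference in log2 expression between phases for each gene (rows), CA thermophase minus CA cryophase (purple circles) and AA subjective thermophase minus AA subjective cryophase (grey squares), with limma standard errors as bars and no bar for the untested *Jon99Fi*. Points lie right of 0 in 28 of 30 genes on the CA day and 29 of 30 on the AA day, and the bars of the widest differences exceed 0.5 log2 units on each side.

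The change between phases was not shown to differ between the days. CA minus AA, it was above 0 in 18 of 30 members (median 0.02, against -0.01 over all probe sets, of which 46.4% were above 0), and 0 of 29 members were called by limma (smallest adjusted p = 0.997, 0% of all probe sets) or had an unadjusted p under 0.05, against 3.18% of all. The smallest p was that of *zetaTry*, whose phase change was smaller in CA than in AA by -0.20 ± 0.13 (SE), followed by *Jon44E*, with 0.35 ± 0.25. Without AA10 the value of *zetaTry* was -0.13, and that of *Jon44E* ran from 0.16 without CA22 to 0.56 without CA18. In the flight muscle list 5 of 6 genes were above 0 (median 0.28). The median ran from -0.18 without CA22 to 0.22 without CA2 and was below 0 without CA6, CA10, CA14, CA22, AA2, AA14 or AA18, so that it had no stable direction.

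Arrays of the same hours were also compared between days. In the cryophase hours, at 18 °C in CA and 25 °C in AA, CA was higher in 27 of 30 members, with a median difference of 0.10 (-0.003 over all probe sets, 48.9% of them above 0). This rested on 1 array: without CA2 the median was -0.11, with 4 of 30 above 0. Without CA6, CA10 or AA10 it was 0.22, 0.22 and 0.06. With the *eIF-4a* gap as a covariate it was -0.14, with 7 of 30 above 0. No member was called by limma (0 of 29, smallest adjusted p = 0.747, 0% of all probe sets) or had an unadjusted p under 0.05, against 6.38% of all. The smallest p were those of *kappaTry* (0.18 ± 0.13, SE) and *Jon66Cii* (0.13). Both moved with single arrays: *kappaTry* from 0.05 without CA2 to 0.32 without AA2, and *Jon66Cii* from 0.03 without AA10 to 0.22 without AA2. In the neuronal list 8 of 11 genes were above 0 (median 0.20). In limma 2 of these 11 genes had an unadjusted p under 0.05, both with a negative difference. The part of this list in the result was not tested.

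In the thermophase hours, at 25 °C on both days, CA was higher in 21 of 30 members, lower in 8 and equal in *lambdaTry*, with a median difference of 0.14 (-0.02 over all probe sets, 43.5% of them above 0). No member was called by limma (0 of 29, smallest adjusted p = 0.999, 0% of all probe sets), and 1 had an unadjusted p under 0.05, against 3.01% of all. This was *Jon44E*, which averaged 4.57 ± 0.40 in the CA thermophase and 4.17 ± 0.09 in the AA subjective thermophase (SD, n = 3 each), a difference of 0.40 ± 0.18 (SE), followed by *LysX*, with 0.17. *Jon44E* gave 0.21 without CA22 and 0.61 without CA18, and *LysX* gave 0.08 without CA22. The largest difference was 1.02 in the untested *Jon99Fi*, and *LysS* (-0.18) and *Jon65Aii* (-0.15) were the lowest. The median was -0.10 without CA22, with 10 of 30 above 0, and 0.42 without CA18, and it was 0.05 without CA14, 0.08 without AA14 and 0.08 without AA18. In the flight muscle list 5 of 6 genes were above 0 (median 0.36) and in the neuronal list 8 of 11 (median 0.23), both medians above that of the members, and their part in the result was not tested.

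A 24-h cosine fitted over both days, with a mean for each day, placed the peak of all 30 members between hours 18 and 3. This window was set after the peaks were seen and held the peaks of 44.3% of all probe sets. On the CA day the cosine missed the low CA18 array near these peaks, where the members' mean deviation was -0.34. At CA18 7 of 30 members were above their own mean, against 23 of 30 at AA18. The median peak-to-trough change of the members was 0.52 (log2), against 0.14 for all probe sets. No member passed limma's adjusted p of 0.05 (0 of 29, smallest adjusted p = 0.499, against 0.00897% of all), and 11 had an unadjusted p under 0.05, against 8.19% of all. Among these 11 were *LysB*, *LysC*, *LysD*, *LysE* and *Jon99Fii*, whose probe sets may hold signal of related genes. The 11 are therefore not separate observations. *LysE* had the smallest p, with a peak-to-trough change of 1.18 ± 0.33 (SE) and a peak at 21.3 ± 1.06 h. *lambdaTry* (0.32 ± 0.09, peak at 22.4 h) and *epsilonTry* (0.75 ± 0.23, peak at 20.9 h) followed. The widest change in this group of 11 was 1.96 ± 0.70, in *Jon65Aiv*, with a peak at 20.4 h.

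**Figure D4:**
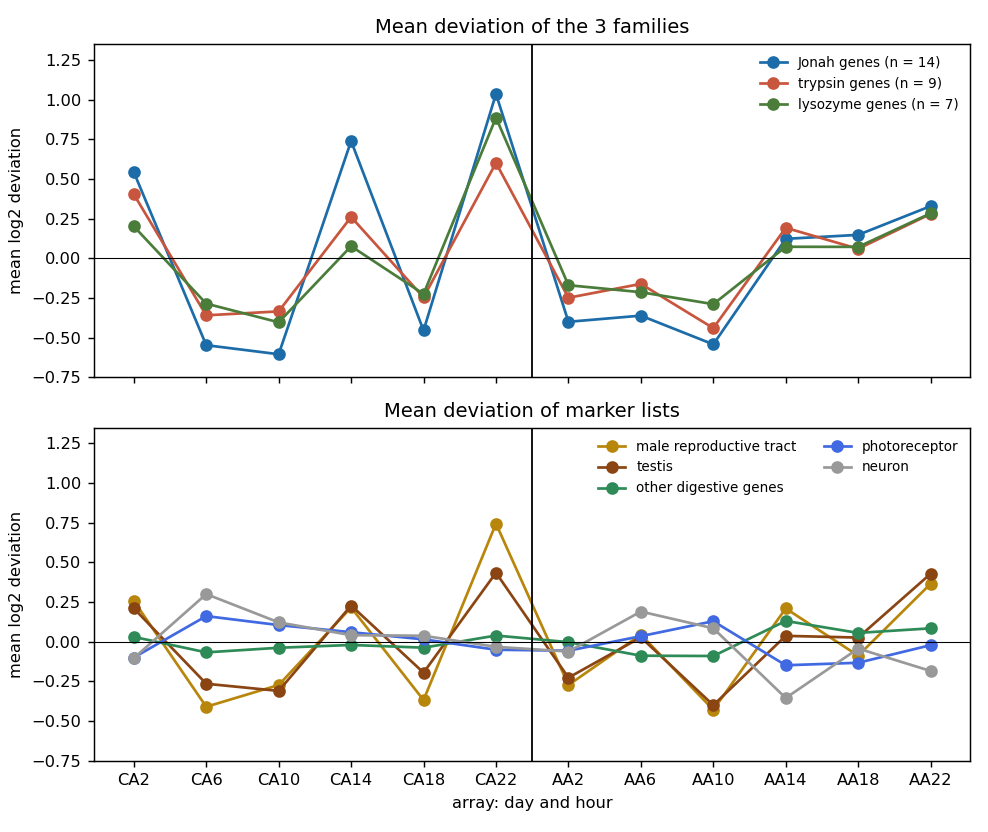
Mean log2 deviation from each gene's 12-array mean, by array in hour order, for the Jonah, trypsin and lysozyme genes (top) and for 5 lists of other genes (bottom), on the same scale. In all 3 families CA2, CA14 and CA22 lie above 0 and CA6, CA10 and CA18 below it, the male reproductive tract list reaches 0.74 at CA22, and the other digestive genes stay between -0.09 and 0.13.

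Other genes of digestion, among them amylases, maltases, lipases and gut proteases of other names, were measured by 26 probe sets, of which 20 passed the filter. The mean deviation of this list did not span the range of the members' mean deviation. It lay between -0.09 at AA10 and 0.13 at AA14, with r = 0.624 to that of the members over the 12 arrays. This describes the list mean and not each digestive gene. In CA 15 of 26 were higher in the thermophase (median difference 0.02), and in AA 22 of 26 were higher in the subjective thermophase (median 0.15), with 0 of 20 called in either comparison by limma and 0 and 4 at an unadjusted p under 0.05 with a positive difference. The smallest p in AA were those of the maltases *Mal-A7* (difference 0.35 ± 0.09, SE, adjusted p = 0.883) and *Mal-A1* (0.54 ± 0.21, adjusted p = 0.883). *Mal-A1* was the digestive gene of this list most like the members, with r = 0.866 and its highest value at CA22. *mex1*, a gene of the midgut enterocyte, lay between 1.99 and 2.43, below the cutoff on every array, whereas 20 of the 26 genes of the list passed the filter. A single gene does not show whether midgut RNA was present, which was not tested.

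Outside the rule, 9912 other probe sets with a single symbol passed the filter, and the 10 most like the mean standardized profile of the members over the 12 arrays had r between 0.943 and 0.961. They were *LManVI*, *Acbp5*, *yip7*, *CG18180*, *CG12374*, *CG16904*, *CG3213*, *Bace*, *CG9029* and *LManV*, and all 10 were highest at CA22. *yip7*, a serine protease, ranged from 6.05 to 9.32, and *CG12374* from 4.11 to 8.31. The range of *CG12374*, 4.21 log2 units, was wider than that of any member, so a wide range was not particular to the members. *LManVI* (4.53 to 5.83) and *LManV* (5.35 to 6.59) encode alpha-mannosidases, and *Bace* (5.47 to 7.99) encodes an aspartyl protease. Male transcripts had a like pattern: *Mst57Da*, of the accessory gland, ranged from 4.77 to 8.63 (log2) and *Acp95EF* from 3.84 to 6.91, both with r = 0.923 to the members and both highest at CA22.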

How the data were processed

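Head RNA was labelled with biotin and hybridised to Affymetrix Drosophila Genome 1 arrays, 1 for each hour. Deposited values were log2 expression, obtained by the authors with RMA (robust multi-array average, its version not given in the sources used here). The log base was read from the range of the values. Nothing further was normalized. Of 14010 probe sets, 44 controls were left out. Probe sets were tested where more than 6 of 12 values exceeded 2.925, the 20th percentile, as the study's methods filter, and 11149 (79.8%) did. Symbols came from the platform annotation (12442 probe sets with 1 symbol, 327 with several, 1197 with none). RefSeq genes (Release 6 plus ISO1 MT) matched 29 of the 30 members and served for names and neighbours. *LysC* had no match.

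The 12 arrays were fitted in 1 limma model with 4 group means (8 residual and 4.24 prior degrees of freedom), two-sided, with Benjamini-Hochberg adjustment over the 11149 probe sets at 0.05. Rhythms were fitted with 24-h cosine and sine terms and day means. Members, lists (male reproductive tract, testis, egg chamber, yolk protein and fat body, flight muscle, photoreceptor, neuron, other digestive genes) and tests were chosen with earlier results of these data known. Named genes were the 2 members of smallest p in each comparison, the 2 of widest range in each family, up to 2 genes of a list by p, and the 10 outside genes most alike. Others, such as *Jon66Ci*, were named after their values were seen. Alternatives covered the filter, normalization, variance model, array weights, covariates, arrays fitted, hour of day as a block and leaving out each array. The method was tested on simulated data. Precision is limited by the number of arrays. The sources do not say whether hours were separate cultures. Tests ran in limma 3.58.1 under R 4.3.3, and summaries and figures in pandas 2.3.3, numpy 2.4.6 and matplotlib 3.10.9 under Python 3.11.15.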

Additional observations from a re-analysis of the deposited data

How the results depend on the processing

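Of 356 recomputed values, 352 kept their direction and their side of the threshold, or moved by less than the spread between arrays (0.30 log2 for the medians). This count does not measure stability. Some values could not change, such as a gene's CA phase difference when an AA array was left out. Medians under 0.30 could change sign and still count, as in the cryophase hours (0.10, and -0.11 without CA2). The exceptions are given first. With limma array weights, 4 members passed an adjusted p of 0.05 in the CA comparison, among 82 probe sets in all: *Jon25Bii* (1.05, adjusted p = 0.044), *Jon44E* (0.62, adjusted p = 0.0387), *Jon99Fii* (2.05, adjusted p = 0.0453) and *Jon65Aiii* (1.82, adjusted p = 0.0484). CA14 weighed 6.12 in that fit and the other 11 arrays at most 1.69. In the AA comparison, 1 member, *Jon99Fii*, passed with only the AA arrays fitted (1.53, adjusted p = 0.00573), among 3 probe sets in all. The median CA phase difference was 0.11 with the male list as a covariate. The median for the phase change in CA minus that in AA was 0.11 with array weights, 0.06 with the male list and 0.24 with the *eIF-4a* gap as a covariate. Between the days, array weights gave medians of 0.05 in the cryophase hours and 0.07 in the thermophase hours, and the male list 0.05 and 0.08. Without 1 array in turn, the median member difference lay between 0.14 and 0.69 for the CA phases, 0.22 and 0.40 for the AA phases, -0.18 and 0.22 for the phase change in CA minus that in AA, -0.11 and 0.22 between the days in the cryophase hours, and -0.10 and 0.42 in the thermophase hours. In those fits 0 members were called in any comparison, and the harmonic peak-to-trough median lay between 0.42 and 0.72. With hour of day as a block, which pairs CA and AA arrays of an hour, 0 members were called in either comparison between the days. Among all probe sets tested, that setting called 15 in the cryophase hours and 0 in the thermophase hours. The main fit called 0 in both. A second probe set per gene was not tried because each member gene had only 1. No paired analysis was possible because the labels number the experiment rather than the replicates, apart from that block. The number of arrays limits every comparison, and signal near the cutoff limits *Jon99Fi* and *LysX*.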

Other observations

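Lists of other tissues were measured alongside the members, and no gene of them that passed the filter was called by limma in any comparison. The 12 genes of the egg chamber, of which 10 passed the filter, had r = -0.366 with the members over the 12 arrays, and 3 of 12 were above 0 in CA thermophase minus cryophase (median -0.03). The 6 genes of yolk protein and fat body had r = 0.130, and 3 of 6 were above 0 in the same comparison (median 0.03). The 6 flight muscle genes, of which 3 passed the filter, had r = 0.629, and their mean deviation was highest at CA22 (0.59) and lowest at AA18 (-0.21). Photoreceptor genes had r = -0.555 with the members and neuronal genes -0.514, and the neuronal list was highest at CA6 (0.30) and lowest at AA14 (-0.35).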
